A study of Homo sapiens with 6 samples.

Results

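The zinc finger genes described here are the protein-coding genes whose symbol is ZNF and a number and which lie on an autosome other than chromosome 19. A summed count of at least 200 over the 4 mimic libraries was required, and 198 of the 226 such genes met it. They were 198 of 13078 genes with that summed count and of 60708 genes in each count table, and the 204 ZNF genes of chromosome 19 that met the same minimum were used for comparison. Just under the minimum lay ZNF410, ZNF596 and ZNF334, with summed counts of 138, 164 and 172, and just inside it lay ZNF469, ZNF821 and ZNF660, with 203, 209 and 229. A group of neighbouring genes on chromosome 7 and another on chromosome 4, each with starts no more than 1 Mb apart, were set apart from the other 186 members. The chromosome 7 cluster had 8 members of 11 genes (ZNF727, ZNF736, ZNF680, ZNF107, ZNF138, ZNF273, ZNF117 and ZNF92) and the chromosome 4 cluster had 4 of 5 (ZNF595, ZNF718, ZNF141 and ZNF721). ZNF722, ZNF735, ZNF679 and ZNF732 did not reach the minimum. A gene could reach it through the fraction in which it is high, so counts over the members describe those that did.

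Cells of the line MDA-MB-231, from a human breast cancer of the triple-negative type, received 25 nM of a miR-99b-5p mimic or of a scrambled control and were used for AGO2-RIP-seq 18 hours later. In this assay an antibody against Argonaute 2, the protein that carries microRNAs to their target transcripts, pulls down RNA (AGO2-IP), while what the pull-down does not take is called the flow-through. Of the 6 libraries, 4 came from mimic cells, with 2 of each fraction, and the control had a single library of each fraction. The label BR marks the mimic replicates, which the methods of the study describe as biological replicates.

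Most ZNF genes encode C2H2 zinc finger proteins, in which repeated finger modules, each held by a zinc ion, read DNA and are joined by a conserved linker. Many also carry a KRAB domain, which recruits TRIM28 and, through it, histone methylation and heterochromatin proteins that silence transposable elements. The family grew by tandem duplication, so neighbours often share long stretches of similar sequence, and Argonaute is known to meet such genes through sites repeated in the coding sequence of the fingers as well as through sites in the 3′ untranslated region.

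The sequences that bear on these values are the transfected miRNA and the places where its seed pairs, shown because the assay looks for them. In RefSeq (GRCh38.p14) the mature miR-99b-5p is encoded on chromosome 19, from 51692618 to 51692639, and its seed, bases 2 to 8, is in capitals.
hsa-miR-99b-5p: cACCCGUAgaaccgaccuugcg

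A 6-base seed match (ACGGGT, which pairs with bases 2 to 7 and was searched in the sense of the transcript) in the 3′ untranslated region of the canonical GENCODE transcript was found in 13 members (6.57%), against 6.67% of the 11747 protein-coding genes tested. In 6 members (3.03%), against 2.21%, a 6-base match there was preceded by T, which pairs with base 8, or followed by A, a usual feature of such sites although here the A faces the c at base 1 and does not pair. Their first such match is printed with the pairing bases in capitals. A match is a run of letters and not a proven site.
ZNF595: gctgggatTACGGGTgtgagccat
ZNF19: aaaatataTACGGGTttttgaatt
ZNF106: agcaggaaACGGGTaggtgaggtg
ZNF197: atggaaaaTACGGGTattcaatgt
ZNF510: ccctattcACGGGTattttataaa
ZNF496: caaaccagACGGGTattttgtatt
These lie on GRCh38 at chr4:87985-88008 (plus strand, ZNF595), chr16:71474797-71474820 (minus, ZNF19), chr15:42414643-42414666 (minus, ZNF106), chr3:44648386-44648409 (plus, ZNF197), chr9:96754656-96754679 (minus, ZNF510) and chr1:247298709-247298732 (minus, ZNF496). Bases 2 to 8 pair in ZNF595, ZNF19 and ZNF197, and bases 2 to 7 in ZNF106, ZNF510 and ZNF496. In the comparison of mimic AGO2-IP with mimic flow-through, the log2 fold changes of these genes were 4.20 in ZNF595, 1.47 in ZNF19, 1.28 in ZNF106, 1.16 in ZNF197, 0.34 in ZNF510 and -1.67 in ZNF496. Their median was 1.22, with 5 of the 6 above 0, as were 135 of all 198 members. The 13 members with a 6-base match, these included, had a median of 0.56 and the 185 without one a median of 0.49. All protein-coding genes tested had -0.05. With the same trend removed, the 13 had 0.79 and the 185 had 0.47. The differences between these groups of members were not tested.

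The second microRNA shown is miR-23a-3p, an abundant cellular miRNA whose seed match recurs in the coding sequence of zinc finger repeats. It was not transfected, and it was picked after the values had been seen, from 9 miRNAs whose seeds were searched. RefSeq places its mature form on chromosome 19 (13836595 to 13836615, minus strand).
hsa-miR-23a-3p: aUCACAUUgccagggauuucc

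The match to bases 2 to 8 of miR-23a-3p, AATGTGA, occurred in all 12 cluster transcripts, 4 to 24 times each, 155 times in all, of which 107 lay in coding sequence. The 3 genes called below are shown with their first coding matches, and ZNF721 with its first, with the match in capitals. In ZNF92 the 3 stretches are evenly spaced.
ZNF92 (a): tattcttacaAATGTGAagaatgtggta
ZNF92 (b): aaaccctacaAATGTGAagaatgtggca
ZNF92 (c): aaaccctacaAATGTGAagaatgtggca
ZNF680 (a): aaaatatttcAATGTGAtaaatacgtga
ZNF680 (b): aattcttacaAATGTGAggaatgtggca
ZNF595 (a): aaaccctacaAATGTGAaaaatgtggca
ZNF595 (b): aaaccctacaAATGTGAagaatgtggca
ZNF721 (a): aaaccttacaAATGTGAagaatgtggca
The ZNF92 stretches lie on the plus strand at chr7:65398709-65398736, chr7:65398793-65398820 and chr7:65398877-65398904. Those of ZNF680 lie on the minus strand at chr7:64522273-64522300 and chr7:64522105-64522132. Those of ZNF595 are at chr4:86096-86123 and chr4:86264-86291 on the plus strand, and that of ZNF721 is at chr4:443953-443980 on the minus strand. Stretches (b) and (c) of ZNF92 are the same 28 bases, and all but the first of ZNF680 end in nearly the same letters.

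The libraries differed in depth and in composition. Counts on genes ran from 7772149 to 8076375 in the control libraries and from 38022779 to 48544756 in the mimic libraries, and 73.7% to 76.7% of control read pairs mapped to several places against 2.38% to 19.2% of mimic read pairs. Mitochondrial genes took 43.4% of gene counts in the flow-through of the control and 0.0116% to 3.48% of the other libraries. No member was at 0 in any library, and the median count of a member was 50 and 105 in the flow-through and AGO2-IP of the control and 397 to 896 in the mimic libraries. Flow-through replicate 1 minus replicate 2 of the mimic had a Spearman's rho of -0.73 with transcript GC content over 13066 genes, which are not independent. For AGO2 itself the counts were 17921 and 22686 in mimic AGO2-IP and 18093 and 12128 in mimic flow-through. Of the markers of the cell line, VIM, CD44, EGFR, CAV1 and AXL each had at least 1001 counts in every library, FOXA1 had at most 8, ESR1 at most 23, PGR at most 25 and CDH1 at most 47, and GATA3, listed as low, had 193 to 1147.

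In mimic AGO2-IP over mimic flow-through, 3 members were enriched: ZNF92 and ZNF680 of the chromosome 7 cluster and ZNF595 of the chromosome 4 cluster. Calls needed a change of 1 or more in size on the log2 scale and an adjusted p no higher than 0.05 (edgeR's quasi-likelihood test, Benjamini-Hochberg over 13078 genes). The same rule called 0.245% of all genes enriched and 0.413% depleted. No member was called depleted by edgeR, 6 had a negative fold change with an unadjusted p under 0.05 (13.1% of all genes did), and PyDESeq2 called 4 depleted and 23 enriched (6.43% of all genes enriched and 8.24% depleted). The median log2 fold change of the 198 members was 0.50, and that of all genes tested was -0.11. It was 3.90 for the 8 members of the chromosome 7 cluster, 2.79 for the 4 of the chromosome 4 cluster, 0.43 for the other 186 members and 0.65 for the 204 ZNF genes of chromosome 19. The 3 calls rested on particular libraries and settings. With 1 mimic library left out, the log2 fold change ran from 4.66 to 7.33 in ZNF92 and from 3.58 to 5.53 in ZNF680. In ZNF595 it ran from 3.52 to 5.17, and all 3 genes were lowest without the second AGO2-IP library. The counts scaled by library size alone gave 0 enriched members, beside 9 of all 13078 genes.

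**Figure D1:**
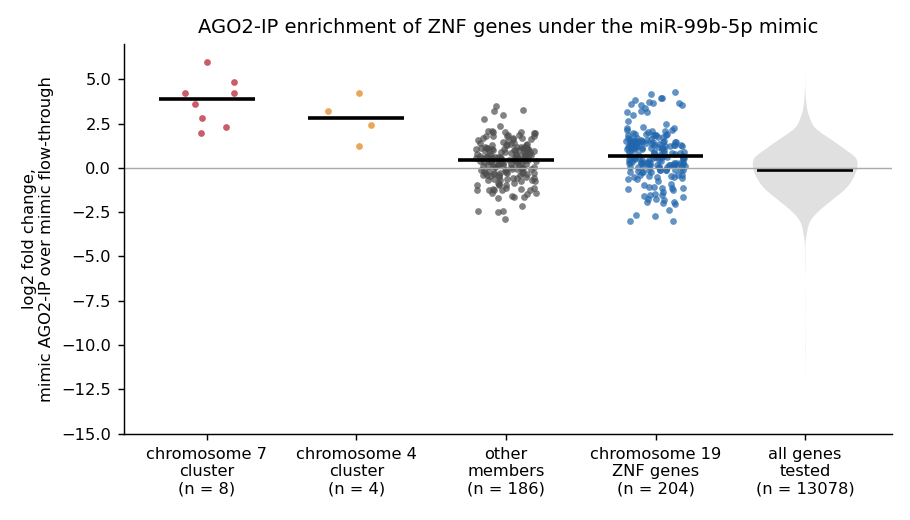
Log2 fold change of mimic AGO2-IP over mimic flow-through (vertical axis) for the members of each cluster, the other members, the ZNF genes of chromosome 19 and, as a violin, all genes tested. Points are genes and black lines are medians, which stand at 3.90 and 2.79 in the clusters, 0.43 in the other members, 0.65 on chromosome 19 and -0.11 over all genes.

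Both AGO2-IP libraries lay above both flow-through libraries in 88 of the 198 members (44.4%) and below both in 29, where all genes had 28.1% above and 28.5% below. Every cluster member was among the 88. Outside the clusters 76 of 186 members (40.9%) lay above both and 29 below. Of the 204 ZNF genes of chromosome 19, 113 (55.4%) lay above both and 31 below. The deposited replicate numbers pair the mimic fractions, and edgeR with that number as a block called 17 members enriched and 4 depleted (4.6% and 5.08% of all genes). The 17 comprised 6 of the 8 genes of the chromosome 7 cluster, 3 of the 4 of the chromosome 4 cluster and 8 others (ZNF678, ZNF330, ZNF695, ZNF830, ZNF622, ZNF281, ZNF189 and ZNF322). The 4 depleted were ZNF771, ZNF785, ZNF467 and ZNF213. ZNF189, ZNF322 and ZNF785 are named after their values were seen, to complete the counts.

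The chromosome 7 cluster lies in GRCh38 between 64045434 (ZNF727) and 65401136 (ZNF92), next to the centromere on the long arm, and 7 of its 8 transcripts encode a recognisable KRAB box. Levels are given in CPM, the count of a gene scaled to a library total of 1000000 gene counts. ZNF92 (chr7:65373799-65401136, plus strand) had 48.5 and 183 CPM in mimic AGO2-IP and 3.40 and 0.597 CPM in mimic flow-through. ZNF680 (chr7:64519878-64563075, minus strand) had 49.6 and 181 CPM against 6.13 and 2.20 CPM. Both genes were therefore higher in each AGO2-IP library than in either flow-through. The log2 fold change was 5.99 for ZNF92 (standard error 1.01, adjusted p = 0.0383) and 4.87 for ZNF680 (0.86, adjusted p = 0.0383) by edgeR. In the block fit they were 5.95 (adjusted p = 2.33e-07) and 4.64 (adjusted p = 3.46e-05). Without the second AGO2-IP library they were 4.66 and 3.58 and neither was called.

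ZNF273 and ZNF107 narrowly missed the threshold. ZNF273 had 20.9 and 80.3 CPM in AGO2-IP and 4.13 and 1.52 CPM in flow-through. ZNF107, whose product is among the longest of the cluster at 852 residues, had 26.1 and 114 CPM against 5.94 and 2.06 CPM. Neither gene overlapped between the fractions. Their log2 fold changes were 4.24 and 4.22 with adjusted p-values of 0.0543 each by edgeR, and 0.000723 and 0.000983 with the block. ZNF138 had 13.7 and 42.8 CPM against 3.43 and 1.48 CPM, a log2 fold change of 3.58 with an adjusted p of 0.0625, or 0.00319 with the block.

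The remaining 3 genes of the chromosome 7 cluster had smaller differences. ZNF117 had 1.5 and 7.21 CPM in AGO2-IP and 0.574 and 0.639 CPM in flow-through. ZNF727 had 1.71 and 7.52 CPM against 0.851 and 0.968 CPM. These had the fewest counts of the cluster, 27 to 274 and 40 to 286 per mimic library. ZNF736 had 19.7 and 79.1 CPM against 11.2 and 13.0 CPM. Their log2 fold changes were 2.79, 2.29 and 1.97, and the edgeR adjusted p-values were 0.132, 0.176 and 0.165 (0.0413, 0.093 and 0.138 with the block). All 8 genes had an unadjusted p under 0.05. Because these genes derive from one another by duplication and only read pairs that map to a single place were counted, the split of reads among them is uncertain.

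Within the chromosome 7 cluster the replicates of AGO2-IP differed in 1 direction. The second mimic AGO2-IP library exceeded the first in all 8 genes, by 1.70 to 2.29 on the log2 CPM scale after TMM normalization, with a median of 2.03. In the chromosome 4 cluster the second was also higher in all 4, by 0.81 to 1.44. In the other 186 members the difference ran from -2.62 in ZNF521 to 1.87 in ZNF703 with a median of -0.10, and 70 were higher in the second library. Summed over its 8 genes, the chromosome 7 cluster took 182 CPM of the first and 696 CPM of the second mimic AGO2-IP library, 35.7 and 22.5 CPM of the flow-through libraries, and 312 and 33.2 CPM of the control AGO2-IP and flow-through.

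**Figure D2:**
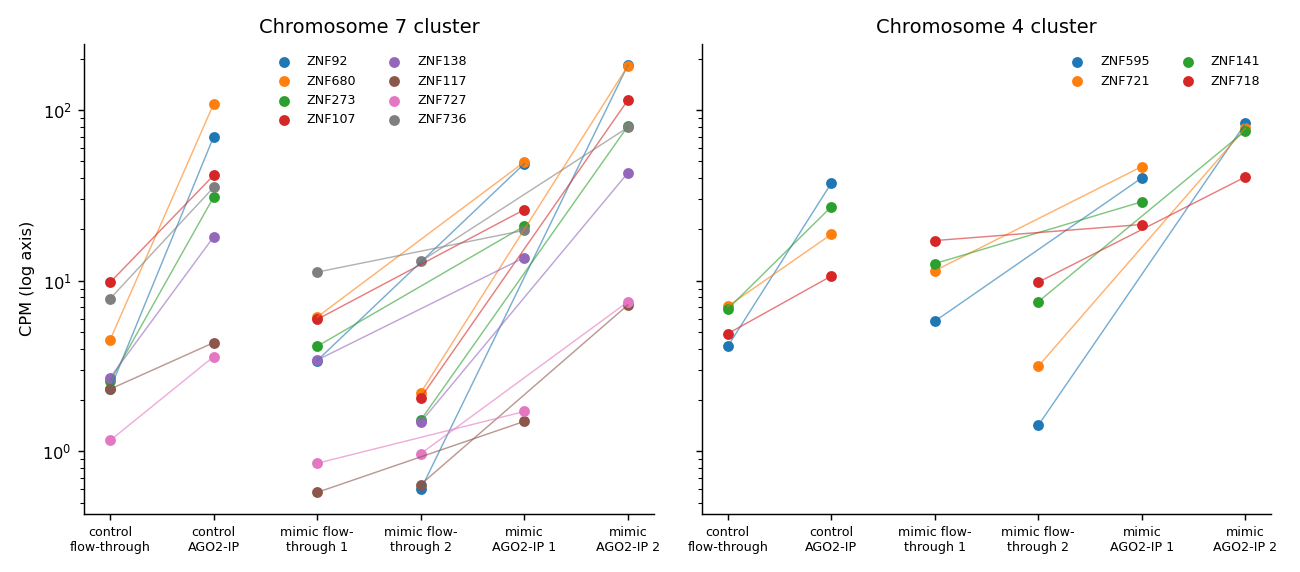
CPM (log axis) of the 12 cluster genes in each of the 6 libraries, with lines joining the fractions of the control and of each mimic replicate. In ZNF92 the second mimic AGO2-IP library stands at 183 and the first at 48.5, both above the flow-through values of 3.40 and 0.597.

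The chromosome 4 cluster lies near the tip of the short arm, between 53286 (ZNF595) and 499156 (ZNF721), and 3 of its 4 transcripts encode a recognisable KRAB box. ZNF595 had 40.1 and 83.5 CPM in mimic AGO2-IP and 5.79 and 1.42 CPM in mimic flow-through. ZNF721, whose protein of 923 residues matched the finger pattern 23 times, had 46.7 and 78.5 CPM against 11.4 and 3.15 CPM. In both genes the fractions did not overlap. ZNF595 was called, at 4.20 on the log2 scale with a standard error of 0.82 (adjusted p = 0.049 by edgeR), and ZNF721 was not, with 3.19 and an adjusted p of 0.063. With the block the adjusted p-values were 0.000186 and 0.00378. The ZNF595 call was lost without either AGO2-IP library (3.52 without the second and 4.66 without the first). It was also lost by edgeR with DESeq2 size factors (adjusted p = 0.0584), with the filter filterByExpr (0.0566), with the counts of column 3 (0.053) or column 4 (0.0643) and with library size alone (0.0769), where the fold change stayed between 4.08 and 4.35.

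ZNF141 had 29.0 and 75.7 CPM in AGO2-IP and 12.6 and 7.54 CPM in flow-through, a log2 fold change of 2.40 with an adjusted p of 0.0979 by edgeR (0.0496 with the block). ZNF718 had 21.4 and 40.6 CPM against 17.2 and 9.81 CPM, the narrowest gap of the 12 cluster genes, with a log2 fold change of 1.22 and an adjusted p of 0.289. With each library's GC trend removed it was 0.08.

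Outside the clusters 0 members were called by edgeR. With an unadjusted p under 0.05, 21 of the 186 had a positive fold change (11.3%, near the 10.6% of all genes) and 6 a negative one (3.23%, below the 13.1% of all genes). PyDESeq2 called 14 enriched (7.53%, near the 6.43% of all genes) and 4 depleted (2.15%, beside 8.24%). The 5 highest among those with non-overlapping fractions and at least 200 counts in each AGO2-IP library were ZNF678, ZNF330, ZNF695, ZNF830 and ZNF622. ZNF678, a C2H2 gene of chromosome 1, had 34.3 and 92.4 CPM in AGO2-IP against 9.21 and 2.88 CPM in flow-through. ZNF330, which encodes a nucleolar cysteine-rich protein without C2H2 fingers, had 216 and 84.2 CPM against 24 and 8.86 CPM. These genes differed in which replicate was higher, the second in ZNF678 and the first in ZNF330. ZNF695, a KRAB zinc finger gene, had 5.69 and 11.8 CPM against 1.62 and 0.433 CPM. The log2 fold changes of the 3 were 3.48, 3.24 and 3.18 with edgeR adjusted p-values of 0.0617, 0.0613 and 0.0885, and 0.00349, 0.00269 and 0.00528 with the block.

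ZNF830 and ZNF622 act in RNA metabolism and not as KRAB repressors. ZNF830, a protein found with the spliceosome, had 63.1 and 48.4 CPM in AGO2-IP against 10.1 and 4.55 CPM in flow-through. ZNF622, a factor of large ribosomal subunit maturation, had 211 and 196 CPM against 20.6 and 35.7 CPM. In both the AGO2-IP replicates were close to each other. Their log2 fold changes were 2.96 and 2.73, with adjusted p-values of 0.0617 and 0.0698 by edgeR (0.00605 and 0.00727 with the block), and 2.38 and 3.12 with the GC trend removed.

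At the low end the 5 members with non-overlapping fractions and at least 200 counts in each flow-through library were ZNF213, ZNF467, ZNF771, ZNF219 and ZNF688. ZNF213 had 4.04 and 3.23 CPM in AGO2-IP against 15.7 and 32.6 CPM in flow-through. ZNF467, a transcriptional regulator of fat and bone cell fate, had 1.97 and 1.16 CPM against 6.72 and 9.41 CPM. ZNF219, a DNA-binding factor, had 20.2 and 15.4 CPM against 37.2 and 104 CPM. All 3 lay below both flow-through libraries in both AGO2-IP libraries. Log2 fold changes were -2.87, -2.47 and -2.16, and -2.43 and -1.71 in ZNF771 and ZNF688, with edgeR adjusted p-values from 0.0825 to 0.227. The transcripts of these 5 genes had a GC content of 62.3% to 70.2%, and with the GC trend removed the values were -1.36, -1.08, -0.25, -1.09 and -0.30. For ZNF771 the unstranded counts were 21.9% of the summed strand counts, and STAR leaves out read pairs that overlap genes on both strands.

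Transcript GC content moved with the values of the mimic comparison, more in the second replicate pair than in the first. Across the 198 members the Spearman's rho of the log2 fold change with GC content was -0.64 (-0.60 across the 186 outside the clusters), a description over genes that share the same 4 libraries. In the control the Spearman's rho of AGO2-IP over flow-through with GC content was 0.07 over 90 members and 0.28 over 82 outside the clusters. In the mimic, the 43 members with a GC content under 40% had a median of 1.07. The 83 with 40% to 50% had 0.88, and the 72 with 50% or more had -0.35. The medians in the first and the second replicate pair were 0.49 and 2.30, 0.71 and 1.26, and 0.17 and -0.68. The 33 members outside the clusters with a GC content under 40% had a median of 0.93, beside 0.68 for all 2068 protein-coding genes in that range. After each library's lowess trend on GC content was removed, the median of the members was 0.48, of the chromosome 7 cluster 2.95 and of the chromosome 4 cluster 1.96, beside -0.05 for all genes tested. edgeR then called 11 members enriched, beside 456 of all 13078 genes, and 0 depleted, beside 330. Of the 11, 4 were in the chromosome 7 cluster and 2 in the chromosome 4 cluster. The 26 members on chromosome 16 had a median GC content of 58.7% and a median log2 fold change of -0.65, which became 0.41 with the trend removed. Their medians in the replicate pairs differed in sign, at 0.19 in the first and -1.05 in the second. The 21 members of chromosome 7 outside the cluster had a median of -0.12, which became 0.51. Their pair medians were 0.43 and -0.36.

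**Figure D3:**
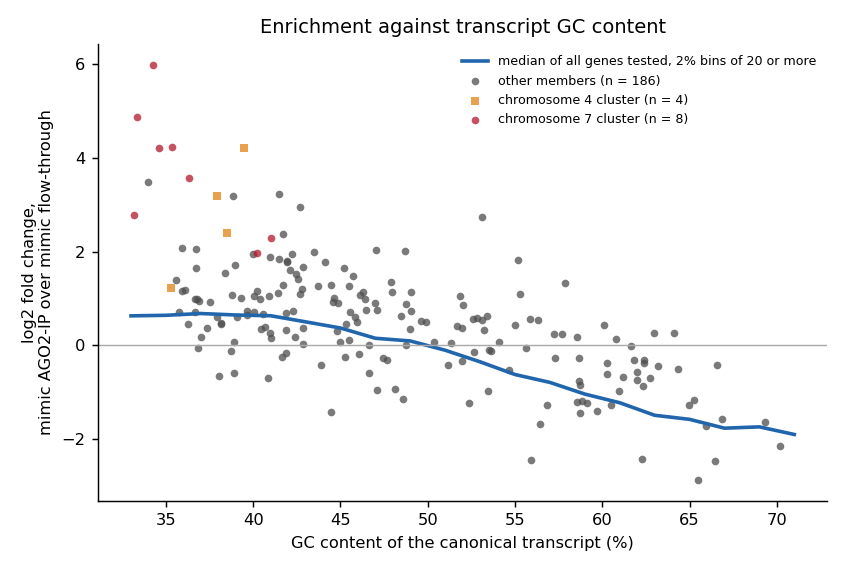
Log2 fold change of mimic AGO2-IP over mimic flow-through against the GC content of the canonical transcript for the 198 members, with the running median of all genes tested in blue (bins of 2% with at least 20 genes). All 12 cluster genes stand above the blue line, with ZNF92 at 5.99 and a GC content of 34.2%, and the members with a GC content of 50% or more have a median of -0.35.

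Among the other runs of neighbouring members, none matched the clusters in these values. Their medians with the GC trend removed ran from -0.77 in the run of 4 members on chromosome 10 to 1.60 in a run of 3 on chromosome 16. The chromosome 12 run of 7, all with a KRAB box, had a median of 0.32 and the run of 7 on chromosome 3 a median of 0.52.

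The members with and without a KRAB box were set side by side, with no test. The 76 members whose protein matched a KRAB box pattern had a median log2 fold change of 0.65 and the 122 others 0.42. Outside the clusters the 66 with the pattern had a median of 0.49, beside 0.43 for all 186 members there. With the GC trend removed the medians of the 76 and the 122 were 0.38 and 0.53, the opposite order. Across the members the number of fingers had a Spearman's rho of 0.20 with the log2 fold change.

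The number of miR-23a-3p seed matches differed between the clusters and other genes. At least 1 match was in all 12 cluster transcripts, 55.4% of the other members, 69.1% of the chromosome 19 ZNF transcripts and 34.2% of the protein-coding genes tested, and the mean number per transcript was 12.9, 1.38, 3.83 and 0.568. The chromosome 7 cluster held 7 to 24 per transcript, with 24 in ZNF107 and in ZNF117, 16 in ZNF680 and 14 in ZNF92. The match of miR-181a-5p, another miRNA known for sites in zinc finger coding sequence, had a mean of 1.83 in the clusters, 2.78 in the other members and 4.81 on chromosome 19, so it did not set the clusters apart. Transcripts with at least 5 miR-23a-3p matches were 29 of the members (14.6%) and 121 of all protein-coding genes tested (1.03%). Among the 204 ZNF genes of chromosome 19 they were 56 (27.5%), with up to 29 matches. The 121 included both of these ZNF groups.

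The 29 members with at least 5 matches had a median log2 fold change of 1.94 and all 29 were above 0. The 121 protein-coding genes with at least 5, members and chromosome 19 ZNF genes included, had a median of 1.20. The 86 members with 1 to 4 matches had a median of 0.59 and the 83 without any had -0.12. The transcripts with more matches were also poorer in GC, with median GC contents of 38.8%, 44.7% and 53.5%. Outside the clusters the 18 members with at least 5 matches had a median of 1.09, and 0.49 with the GC trend removed, close to the 0.42 of all 186 members there. The Spearman's rho of matches with the log2 fold change across the 186 was 0.42 as fitted and 0.07 with the trend removed. For miR-181a-5p matches it was 0.39 and -0.09, so the value as fitted was not particular to miR-23a-3p. In the control, miR-23a-3p matches had a rho of -0.10 with AGO2-IP over flow-through across 82 members outside the clusters. Across 90 members, clusters included, it was 0.11. Whether miR-23a-3p bound these transcripts was not tested, and its level was not measured here.

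**Figure D4:**
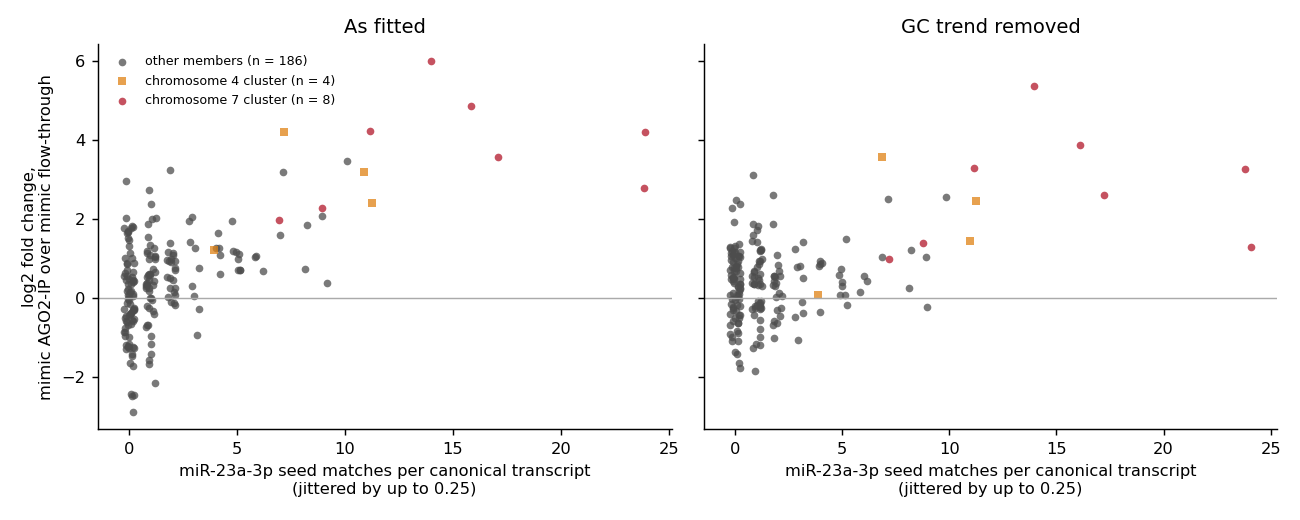
Log2 fold change of mimic AGO2-IP over mimic flow-through against the number of miR-23a-3p seed matches in the canonical transcript, as fitted (left) and with each library's GC trend removed (right). The chromosome 7 cluster holds 7 to 24 matches, and the members outside the clusters hold 0 to 10.

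The control pair gives the same ratio without the mimic, from 1 library of each fraction and so without a test. A log2 ratio of TMM-normalized CPM was formed for the 90 members with a summed control count of at least 200. It was at least 1 in 29 of them and at most -1 in 2, where all genes had 15.9% and 18.1%. The median of the 90 members was 0.43. ZNF92 had 69.8 CPM in the control AGO2-IP and 2.32 CPM in the control flow-through, and ZNF680 had 109 and 4.50 CPM. These were the widest gaps of the cluster in the control too, with log2 ratios of 3.92 and 3.65. The ratio was 2.62 in ZNF273, 1.26 in ZNF736 and 1.18 in ZNF107, and 2.24 in ZNF595, 1.08 in ZNF141 and 0.50 in ZNF721. ZNF138, ZNF117, ZNF727 and ZNF718 summed to under 200 counts over both control libraries and got no ratio, with 18.1, 4.33, 3.59 and 10.6 CPM in the control AGO2-IP and 2.7, 2.32, 1.16 and 4.89 CPM in the flow-through. The cluster genes with a ratio were higher in AGO2-IP in the mimic-free cells as well. A gene such as ZNF92 could reach the minimum of 200 through its AGO2-IP counts alone, so these ratios describe only the genes that reached it. Scaled by library size alone the median of all genes was 0.89, where it was 0.01 with TMM, and 61 of the 90 members had a ratio of at least 1, beside 3802 of 8245 genes.

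Mimic AGO2-IP was then set against control AGO2-IP, where 181 members had a summed count of at least 200 and each mimic library gave its own log2 ratio. At least 1 in both were 32 members (17 of 190 on chromosome 19), and at most -1 in both were 6, where all genes had 12.2% and 12.2%. None of the 8 genes of the chromosome 7 cluster was among the 32. The first mimic library lay below the control in all 8, from -1.39 in ZNF117 to -0.30 in ZNF138, and the second lay above it in all 8, from 0.88 in ZNF117 to 1.62 in ZNF107. For ZNF92 the ratios were -0.42 and 1.55 and for ZNF680 -1.03 and 0.90. So the mimic replicates disagreed on the side of the control for every gene of that cluster, as they did for 27 of the 169 members outside the clusters. The 4 genes of the chromosome 4 cluster were above the control in both, with 0.21 and 1.32 in ZNF595, 1.42 and 2.23 in ZNF721, 0.20 and 1.64 in ZNF141 and 1.10 and 2.08 in ZNF718.

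**Figure D5:**
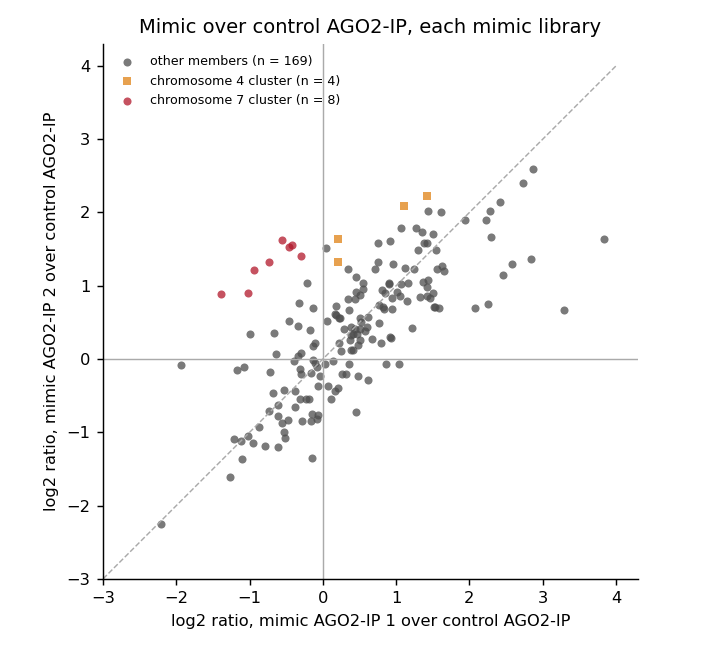
Log2 ratio of each mimic AGO2-IP library over the single control AGO2-IP library for the 181 members with a value (horizontal axis, replicate 1; vertical axis, replicate 2), with the dashed line marking equal ratios. All 8 genes of the chromosome 7 cluster stand left of 0 and above 0.88, in ZNF117 at -1.39 and 0.88.

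The highest mean ratios over the control were those of ZNF704, ZNF594 and ZNF830. ZNF704, a transcriptional repressor gene, had 25.5 and 5.31 CPM in the mimic AGO2-IP and 1.86 CPM in the control AGO2-IP, with log2 ratios of 3.84 and 1.64. ZNF594 had 17.2 and 13.6 CPM against 2.48 CPM, with 2.87 and 2.59. ZNF830 had 63.1 and 48.4 CPM against 10.2 CPM, with 2.73 and 2.41. ZNF704 was as variable in flow-through, at 34.0 and 4.02 CPM, and its AGO2-IP over flow-through log2 fold change was -0.17. The control AGO2-IP held only 15, 20 and 82 counts of the 3 genes. The lowest were ZNF775 (-2.21 and -2.25), ZNF219 (-1.27 and -1.60) and ZNF213 (-1.10 and -1.36), all with a GC content of 65.5% or more. ZNF775 was the 1 member whose mimic and control AGO2-IP over flow-through values both passed 1 in size in opposite directions, at -1.64 and 1.005, with 4.26 and 3.97 CPM in the mimic AGO2-IP, 3.43 and 18.6 CPM in the mimic flow-through and 21.4 and 5.66 CPM in the control AGO2-IP and flow-through. Its mimic value turned to 0.47 without the second flow-through library.

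The 5 members with the largest summed counts were ZNF217, ZNF664, ZNF106, ZNF703 and ZNF316. ZNF217, a transcription factor amplified in breast cancers, had 312 and 414 CPM in AGO2-IP against 107 and 74.0 CPM in flow-through, a log2 fold change of 2.0 with an adjusted p of 0.0979 by edgeR. ZNF106, an RNA-binding zinc finger protein, had 218 and 299 CPM against 124 and 87.3 CPM and a log2 fold change of 1.28. In both genes the replicates of a fraction lay close together. ZNF664 had 309 and 232 CPM against 194 and 45.0 CPM, with 1.28. ZNF703, a cofactor gene amplified in luminal breast cancer, had 46.0 and 161 CPM against 71.3 and 333 CPM, and ZNF316 had 131 and 159 CPM against 34.0 and 176 CPM. The fractions of these last genes overlapped, and their log2 fold changes of -1.16 and 0.26 changed sign when a flow-through library was left out (0.76 without the second for ZNF703 and -0.56 without the first for ZNF316).

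The lists of members with known roles outside KRAB repression held 20 members, of which 0 were called by edgeR, 3 with the block (ZNF622, ZNF830 and ZNF281, or 15%, beside 4.6% of all genes) and 4 by PyDESeq2 (those and ZNF217, or 20%, beside 6.43%). Of the ribosome and translation list 2 of 3 were members, ZNF593 having under 200 counts, and 0 were called by edgeR and 1, ZNF622, with the block and by PyDESeq2. By contrast ZNF598, a ubiquitin ligase that marks collided ribosomes, had a log2 fold change of -1.26, with 36.1 and 33.3 CPM in AGO2-IP against 59.6 and 94.5 CPM in flow-through, and 0.11 with the GC trend removed. Of the 5 genes of the RNA and splicing list, 0 were called by edgeR and 1, ZNF830, with the block and by PyDESeq2, the 1 with an unadjusted p under 0.05. ZNF326 of the DBIRD complex had a log2 fold change of 0.98, ZNF638 0.72, the double-stranded RNA binding protein ZNF346 0.42 and the spindle and splicing factor ZNF207 -0.05. The median of the 5 was 0.72. Of the 14 transcription factors and cofactors 13 were members, ZNF423 having under 200 counts. Their median was 0.71 and 0 were called by edgeR. An unadjusted p under 0.05 with a positive fold change was found in 3 (23.1%, beside 10.6% of all genes). PyDESeq2 called 2 enriched (15.4%, beside 6.43%). ZNF281, a factor linked to stemness and epithelial-mesenchymal transition, had 84.1 and 144 CPM against 37.5 and 9.41 CPM and a log2 fold change of 2.38 (adjusted p = 0.0979 by edgeR and 0.0279 with the block), and ZNF143, a promoter-binding activator, had 1.80. ZNF217, described above, is also on this list, with 2.0, and the fold changes of the others ran from 1.40 in ZNF148 to -1.23 in ZNF687.

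The partners of KRAB proteins, a list of 16 genes, had a median log2 fold change of 0.30 and no call by edgeR. An unadjusted p under 0.05 with a positive fold change was found in 3 (18.8%, beside 10.6% of all genes). The block fit called 1 enriched (6.25%, beside 4.6%) and PyDESeq2 called 2 (12.5%, beside 6.43%). TRIM28, the corepressor that KRAB domains recruit, had a log2 fold change of -0.40 with overlapping fractions, and SETDB1, its histone methyltransferase, had 1.37 (adjusted p = 0.212). HDAC2 had the highest at 2.12 (adjusted p = 0.101 by edgeR and 0.0383 with the block, where it was the 1 gene called), with MORC2 of the silencing machinery at 1.81 and CBX3, a heterochromatin protein, at 1.64. CBX1 had the lowest, -0.57. Of the 16, 5 were at least 1 and 0 at most -1, beside 2621 and 3515 of all 13078 genes.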

How the data were processed

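The authors checked the reads with FastQC 0.11.9, removed adapters with cutadapt 3.5, mapped to GRCh38 by STAR 2.7.11b and deposited the gene counts of STAR, which are whole-number counts of uniquely mapped read pairs without normalization; DESeq2 is also in the submitters' processing notes, without a version. Column 2 (unstranded) was used, and columns 3 and 4 (each strand) as alternatives. The rows that name no gene held 21.4% to 95.0% of the read pairs of a library and were left out. Of 60708 identifiers 60463 were matched by Ensembl number to GENCODE release 44, which gave names, coordinates and canonical transcripts; the release used for counting is not given in the sources used here.

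Genes whose counts in the 4 mimic libraries summed to 200 or more were fitted with edgeR 4.0.16 (R 4.3.3; TMM, glmQLFit, glmQLFTest, no replicate term), and the standard error was the fold change divided by the square root of F. The labels BR1 and BR2 are shared by AGO2-IP and flow-through, and deviations of same-numbered libraries had a Pearson's r of 0.324 across 13078 genes, so the fit with a replicate block is given where it changes a call. Ratios with the single control libraries used log2 CPM with a prior count of 2 and no test. The GC trend was a lowess curve (span 0.2) of each library on canonical transcript GC content. KRAB boxes and fingers were letter patterns in the translated sequence, which miss divergent copies. Seeds of 9 miRNAs were searched in the sense strand of canonical transcripts. Alternatives were DESeq2 1.42.0 size factors, PyDESeq2 0.5.4, other filters and each mimic library left out. The fits were checked on simulated counts. The members, the gene lists, the tests and the alternatives were chosen with earlier results of these data known. The named genes were the called members, all cluster members, the 5 highest and 5 lowest others with non-overlapping fractions and at least 200 counts in each library of the higher fraction, the 5 largest counts, the 3 highest and 3 lowest mimic over control ratios, members opposite in mimic and control, and the role lists.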

Additional observations from a re-analysis of the deposited data

Results flagged for a closer look

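In 5 named members every mimic AGO2-IP over flow-through pair lay on one side of 0 and the single control pair on the other, a contrast that was not tested. ZNF687 had a mimic log2 fold change of -1.23 and a control log2 ratio of 0.16. ZNF598 had -1.26 and 0.000273, the latter at no distance from 0. ZNF664 had 1.28 and -0.90, ZNF462 had 0.98 and -0.21, and ZNF609 had 0.55 and -0.32. With library size alone as the scale the control ratio was 0.68 in ZNF462 and 0.57 in ZNF609, so both were then on the mimic's side, and it was -0.00962 in ZNF664, 1.05 in ZNF687 and 0.89 in ZNF598. With the GC trend removed ZNF598 turned to 0.11 in the mimic and -0.04 in the control, and the mimic value of ZNF687 was -0.20. Of the 29 named members with both values these were 5, of the 90 members 13, and of 8225 genes 953 (11.6%).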

How the results depend on the processing

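The 3 enriched members, of 32 enriched among all 13078 genes, became 17 of 601 with the replicate block and 23 of 841 with PyDESeq2. They became 11 of 456 with the GC trend removed, and 37 of 1804 with that and the block. With every gene that has a count they were 14 of 419 enriched among 43635 genes. They were 0 of 9 with library size alone and 0 of 2 with column 4. The 0 depleted, of 54 among all genes, became 4 of 664 with the block and 4 of 1077 with PyDESeq2. They were 0 of 330 with the GC trend removed, and 5 of 1632 with that and the block. Leaving out a library gave 0 to 59 enriched, 0 to 16 depleted and a median of 0.32 to 0.75, which was 0.67 with filterByExpr and 0.87 with every gene that has a count. Medians of both clusters stayed above 0 in all these fits. Each fit with a library left out had 1 library in a fraction. Among those fits, the one with the most member calls, enriched and depleted, also had the most calls over all genes. The one with the fewest enriched members had the fewest enriched genes. The range of these counts is therefore not particular to the members. The 29 control ratios of at least 1, of 1315 among 8245 genes, became 61 of 3802 with library size alone. The 32 members at least 1 above the control AGO2-IP, of 1398 among 11467 genes, became 19 of 811 with the GC trend removed. They were 52 of 1995 without the first mimic AGO2-IP library and 48 of 2275 without the second. The 6 at most -1, of 1397 genes, became 3 of 1306 with column 3 and 2 of 1021 with the GC trend removed. Without the first library they were 11 of 2056, and without the second 11 of 2232. Of 46 named members, 37 kept their sign in every fit. Signs turned in ZNF703 (0.64 with the GC trend removed, 0.43 with the block too, -2.42 to 0.76 with a library left out), ZNF775 (0.49, 0.54 and -2.46 to 0.47 in the same fits), ZNF598 (0.11 and 0.14 in the first 2 of them), ZNF704 (0.0699 with every gene that has a count), ZNF207 (0.33 with the block, 0.0758 with filterByExpr, 0.19 with every gene that has a count) and ZNF592 (0.0326 with every gene that has a count), and with a library left out also in ZNF704 (-1.66 to 1.64), ZNF207 (-0.77 to 1.43), ZNF316 (-0.56 to 2.30), ZNF346 (-0.10 to 0.78) and ZNF521 (-1.08 to 2.98). The causes were not tested.

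With 2 libraries in each mimic fraction and 1 in each control fraction, a mimic effect on the clusters cannot be told apart from the spread between libraries. Control counts of a member were few, and duplicated genes lose read pairs that map to several places.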
